A study of Rattus norvegicus with 2 samples.

Results

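The 9 genes described here, Cdkn1a, Gadd45a, Btg2, Mdm2, Ccng1, Bax, Phlda3, Sesn2 and Gdf15, are known as p53 target or growth arrest genes, and were taken by symbol from the 16484 annotated genes with number-only identifiers among 113011 listed features of rat urine RNA. All 9 were found. Each was read as 1 FPKM value (fragments per kilobase and per total of mapped fragments) in each of 2 libraries. The WT library came from sham-operated rats and the UUO library from rats whose right ureter had been tied (unilateral ureteral obstruction, a surgical model of renal fibrosis). All rats were Sprague Dawley, 8 weeks old (postnatal day 56), and were sampled 2 weeks after surgery. The labels name no transgene and no drug. Urine was drawn from the ureter by catheter in both groups, and the number of rats behind a library is not given in the sources used here. The table names its conditions only by abbreviations, and every direction below rests on reading UrRf as UUO and Urc as WT. With 1 library per group there was no replicate check on any difference below, and no test between the groups was made.

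The protein p53 is a transcription factor that accumulates after DNA damage and other stress, and it switches on genes that halt the cell cycle, repair DNA, start apoptosis or limit p53 itself. Several of these genes also answer to stress signals that do not pass through p53. In the obstructed kidney, arrest of tubular epithelial cells is a known accompaniment of fibrosis, and cells and vesicles shed from the urinary tract carry RNA into urine.

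RefSeq promoter windows were read for 8 of the 9 genes in build GRCr8, as the 250 bases before each annotated start, and Gdf15 had 2 of them. The p53 decamer consensus, a half-site and so only part of a full p53 element, was searched by its degenerate letters on both strands. It was in the windows of Cdkn1a, Gadd45a and Ccng1, and in 6.64% of all 33469 rat windows of that length. The cAMP response element (TGACGTCA) was in that of Btg2 and in 1.59% of all windows, and the octamer (ATTTGCAT) in that of Gadd45a and in 1.56%. The CCAAT box (CCAAT) was in windows of 6 of the members and in 34.0% of all windows. The GC box (GGGCGG) was found for 7 members and in 30.5% of all windows, and the TATA box (TATAAA) for Gdf15 alone and in 12.9%. The Smad element (CAGACA), the one searched in the study, was in none of the 9 windows of the members and in 17.2% of all. A match is a run of letters and was not tested as a binding site, and sequence outside these windows was not searched. The sequences below are those of the 3 genes that were 2-fold or more higher in UUO urine (Gadd45a, Btg2 and Phlda3), followed by Cdkn1a and Ccng1, which also hold the p53 decamer and stayed within the 2-fold limit. Capitals mark the p53 decamer, the cAMP response element, the octamer and the CCAAT box.
Gadd45a promoter, chr4:97486800-97487049, minus strand: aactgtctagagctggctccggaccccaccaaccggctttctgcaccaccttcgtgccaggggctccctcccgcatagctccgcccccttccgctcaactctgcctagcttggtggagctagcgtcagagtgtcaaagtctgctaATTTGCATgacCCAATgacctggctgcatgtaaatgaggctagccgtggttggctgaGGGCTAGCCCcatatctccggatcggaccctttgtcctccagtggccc
Btg2 promoter, chr13:48087691-48087940, minus strand: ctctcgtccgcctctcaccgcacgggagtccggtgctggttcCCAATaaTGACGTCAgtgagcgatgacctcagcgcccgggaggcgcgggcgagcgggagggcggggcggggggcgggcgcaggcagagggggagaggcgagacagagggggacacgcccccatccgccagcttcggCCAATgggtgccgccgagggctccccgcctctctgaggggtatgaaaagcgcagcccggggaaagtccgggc
Phlda3 promoter, chr13:49744753-49745002, plus strand: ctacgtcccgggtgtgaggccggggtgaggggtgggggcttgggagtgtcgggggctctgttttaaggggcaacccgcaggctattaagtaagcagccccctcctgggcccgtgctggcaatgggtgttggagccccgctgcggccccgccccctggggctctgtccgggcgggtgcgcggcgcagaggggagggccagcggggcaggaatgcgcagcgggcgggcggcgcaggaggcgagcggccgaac
Cdkn1a promoter, chr20:7150682-7150931, plus strand: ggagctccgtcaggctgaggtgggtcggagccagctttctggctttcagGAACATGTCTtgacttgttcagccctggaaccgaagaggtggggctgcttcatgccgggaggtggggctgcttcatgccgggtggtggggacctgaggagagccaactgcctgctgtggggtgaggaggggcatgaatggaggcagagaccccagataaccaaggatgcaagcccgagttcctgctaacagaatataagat
Ccng1 promoter, chr10:25684877-25685126, minus strand: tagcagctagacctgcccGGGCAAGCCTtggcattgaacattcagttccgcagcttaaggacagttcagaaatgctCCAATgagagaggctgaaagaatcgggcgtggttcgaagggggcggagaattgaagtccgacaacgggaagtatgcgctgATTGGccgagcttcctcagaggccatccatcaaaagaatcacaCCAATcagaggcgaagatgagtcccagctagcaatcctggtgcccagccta

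In the Gadd45a window the p53 decamer spans 48 to 39 bases before the start, and the octamer lies 105 to 98 bases before it. The cAMP response element of Btg2 lies 201 to 194 bases before the start. In Cdkn1a the decamer lies 201 to 192 bases before the start, and in Ccng1 232 to 223. Phlda3 holds none of the 4 marked motifs in this window. The members with the decamer in this window thus include 1 that was higher in UUO urine and 2 that stayed within the limit.

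Steps in the FPKM of assembled features gave 1 fragment on 1000 bp of transcript as an FPKM of 0.542 in WT and 0.496 FPKM in UUO urine. On that scale the members held from 38 (Phlda3) to 200 (Ccng1) fragments per 1000 bp in WT urine and from 22 (Bax) to 229 (Gadd45a) in UUO urine. Urothelial markers were detected (FPKM of at least 1) in both libraries, 5 of 6 in WT and 6 of 6 in UUO urine, as were kidney tubule markers, 11 and 10 of 11. The summed FPKM of 12 leukocyte markers was 85.6 FPKM in WT and 238 FPKM in UUO urine. Of them 8, Ptprc, Cd68, Itgam, Csf1r, S100a8, S100a9, Tyrobp and Fcer1g, were listed at 0 in WT, as were 8460 of all 16484 annotated genes. Lyz2 was higher, from 7.55 in WT to 26.5 FPKM in UUO urine. Cd74 (69.99 and 64.8), Itgb2 (5.99 and 8.14) and Cd14 (2.05 and 1.31) stayed within 2-fold. The 8 red-cell markers summed to 3181 FPKM in WT and 88825 FPKM in UUO urine, and all 8 were 2-fold or more higher. The part of these cells in the members' values was not tested, and fewer cells of a type cannot be told apart from less RNA per cell. Per the study's methods urine was centrifuged before freezing and again once thawed, ahead of RNA isolation. How much of the RNA came from whole cells was not tested. A value of 0 can be a failed estimate in this table, since the housekeeping gene Hprt1 was listed at 0 in both libraries and Ppia in UUO urine.

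All 9 genes were detected in both libraries, where 43.8% of the annotated genes were. They lay between 20.4 and 108.3 FPKM in WT urine and between 11.1 and 113.8 FPKM in UUO urine. Changes are given as differences of log2(FPKM + 1), UUO minus WT, and a gene was counted as higher or lower at a difference of 1 or more, which is about 2-fold. Gadd45a, Btg2 and Phlda3 were higher in UUO urine, Bax and Sesn2 were lower, and Cdkn1a, Mdm2, Ccng1 and Gdf15 stayed within the limit. Over the 9853 annotated genes that reach an FPKM of 1 in at least one library, 25.7% were higher and 36.5% lower by the same limit. The median difference was -0.62 over the members and -0.51 over those 9853 genes.

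**Figure D1:**
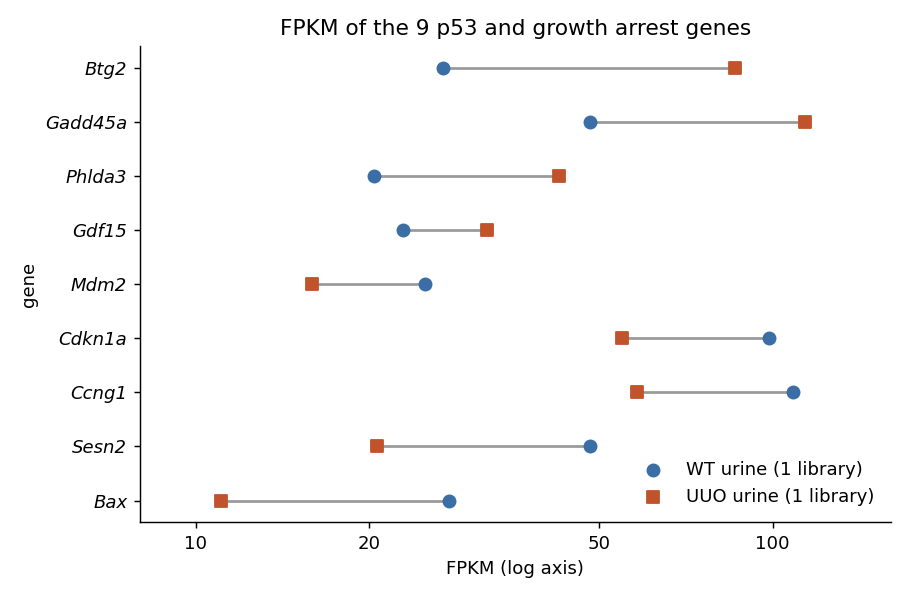
FPKM of each of the 9 genes in WT urine (circles) and UUO urine (squares), 1 library each, on a log axis, ordered by their log2 difference. Btg2, Gadd45a, Phlda3 and Gdf15 have the square to the right of the circle, and the other 5 genes have it to the left.

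Many of those 9853 genes are low or listed at 0 in 1 library, so the members were also set beside the 3114 genes with FPKM of at least 10 in both, a limit that all 9 members pass and that was chosen after their values were seen. Of these genes 4.56% were 2-fold or more higher in UUO urine and 42% lower, with a median difference of -0.81. The difference of Btg2 was above that of 98.5% of them, of Gadd45a above 97.1%, of Phlda3 above 95.8% and of Gdf15 above 89.8%. Mdm2 stood at 58.2%, Cdkn1a at 48.9%, Ccng1 at 46.6%, Sesn2 at 34.8% and Bax at 32.5%. The members thus fell into 4 genes near the upper end of the distribution and 5 in its middle part, which includes both genes counted as lower. These places describe this pair of libraries and are not a test.

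**Figure D2:**
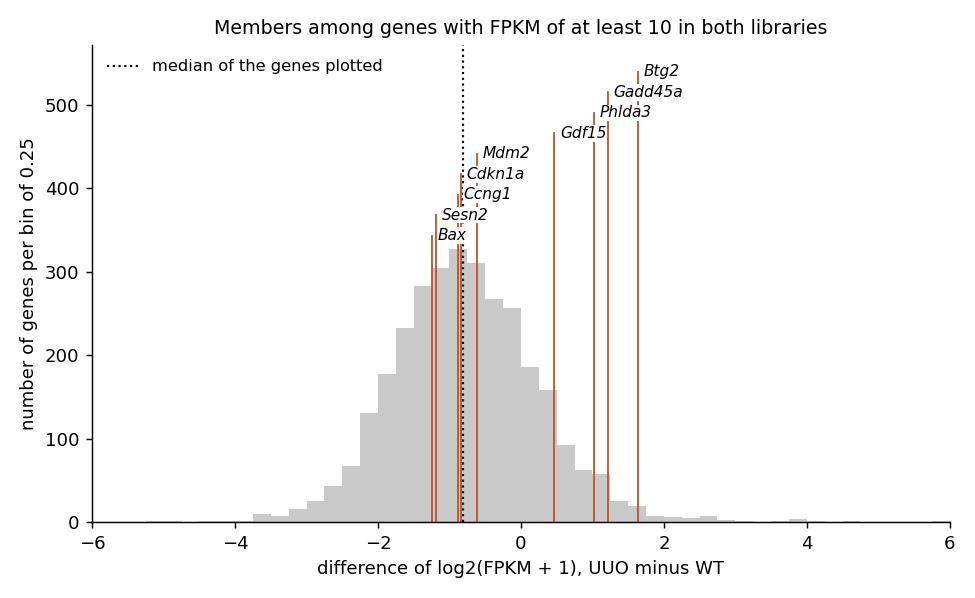
Histogram of the log2(FPKM + 1) difference, UUO minus WT, over the 3114 annotated genes with FPKM of at least 10 in both libraries, in bins of 0.25, with the 9 genes drawn as vertical lines (the heights of the lines only separate the names) and the median of -0.81 as a dotted line. Cdkn1a, Ccng1 and Mdm2 stand close to the median, while Gdf15, Phlda3, Gadd45a and Btg2 stand to the right of it.

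The 3 genes that act on the cell cycle did not move together. Gadd45a (ID 25112, chromosome 4, 162568468 to 162570809, rn5), whose protein binds PCNA and cell cycle kinases in arrest and repair, had an FPKM of 48.3 in WT and 113.8 FPKM in UUO urine, which is 2.36-fold higher (log2 difference 1.22). Btg2 (ID 29619, chromosome 13, 55966277 to 55970058), an antiproliferative protein that recruits the deadenylase complex to mRNA, had 26.9 FPKM in WT and 86.0 FPKM in UUO urine, which is 3.20-fold higher (log2 difference 1.64). Btg2 had the greatest difference of the members. Cdkn1a (ID 114851, chromosome 20, 8592436 to 8602884) encodes the cyclin-dependent kinase inhibitor p21 and is the classical arrest target of p53. It stayed within the 2-fold limit. Its FPKM was 98.6 in WT and 54.7 FPKM in UUO urine, and its log2 difference was -0.84, which is close to the median of the 3114 genes.

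The genes that feed back on p53 were both within the 2-fold limit. Mdm2 (ID 314856, chromosome 7, 60719025 to 60743586), the ubiquitin ligase that marks p53 for degradation, had 24.99 FPKM in WT and 15.9 in UUO urine, and its log2 difference was -0.62. Ccng1 (ID 25405, chromosome 10, 25754103 to 25760502), cyclin G1, which works with a phosphatase to restrain p53, had 108.3 FPKM in WT and 58.1 FPKM in UUO urine, and its log2 difference was -0.89. Both log2 differences were below 0 as deposited, and that of Mdm2 came out above 0 after rescaling by the median ratio, at 0.24.

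The genes of cell death and survival signalling, Bax and Phlda3, lay on opposite sides of the limit as deposited. Bax (ID 24887, chromosome 1, 102530746 to 102536162), which forms pores in the mitochondrial outer membrane, had 27.5 FPKM in WT and 11.1 in UUO urine, 2.49-fold lower (log2 difference -1.24). Phlda3 (ID 363989, chromosome 13, 57637167 to 57640302), a pleckstrin homology protein that competes with the survival kinase Akt for membrane lipids, had 20.4 FPKM in WT and 42.6 FPKM in UUO urine, 2.09-fold higher (log2 difference 1.03). Phlda3 was just past the limit and was past it when summed over its locus, but was at 0.79 with a pseudocount of 10. It was also past the limit under the 3 rescalings of the UUO library tried. These raise every UUO value, so they could not bring Phlda3 back within the limit. Bax came within the limit under each of these rescalings. Its log2 difference was -0.10 when the FPKM of all entries at its locus were summed. The ratio of Phlda3 to Bax within a library was 0.742 for WT and 3.85 for UUO urine, and from the locus sums it was 0.742 and 1.77.

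Sesn2 and Gdf15, which also answer to nutrient and endoplasmic reticulum stress, parted as well. Sesn2 (ID 502988, chromosome 5, 154351283 to 154370255), a leucine sensor that restrains the growth kinase complex mTORC1, had 48.2 FPKM in WT and 20.6 in UUO urine, 2.34-fold lower (log2 difference -1.19). Gdf15 (ID 29455, chromosome 16, 20411138 to 20413899), a secreted stress hormone of the TGF-beta superfamily, had 22.9 FPKM in WT and 32.0 FPKM in UUO urine, 1.40-fold higher (log2 difference 0.46). The gap between these genes in log2 difference was wider than the 2-fold limit although Gdf15 itself stayed within it.

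The order of the members by FPKM, which is per length and so can be compared between genes, changed between the libraries. In WT urine Ccng1 and Cdkn1a led, 2.04-fold above the third gene, Gadd45a. Below them Gadd45a and Sesn2 were level, at 48.3 and 48.2, and Bax, Btg2, Mdm2, Gdf15 and Phlda3 followed from 27.5 down to 20.4. In UUO urine Gadd45a was first and Btg2 second, ahead of Ccng1 at 58.1 and Cdkn1a at 54.7, and Bax was last. Neighbours in either order have no measured spread, so their order cannot be called different. The FPKM ratio of Gadd45a to Cdkn1a was 0.490 for WT and 2.08 for UUO urine, and Btg2 to Cdkn1a was 0.272 and 1.57. Ccng1 to Cdkn1a was 1.10 and 1.06, and Mdm2 to Cdkn1a was 0.254 and 0.291, which are nearly the same proportions in both libraries. From the locus sums Ccng1 to Cdkn1a was 1.12 and 0.764, and Mdm2 to Cdkn1a 0.260 and 0.230, so that the first of these near-constant ratios holds for the listed gene entries but not for the loci. The FPKM of the 9 genes summed to 426 in WT and 435 in UUO urine.

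How the libraries are scaled decides the sign for some members. Dividing UUO values by 0.648 (equal summed FPKM), 0.547 (equal 75th percentile) or 0.538 (median ratio) moved the median of the 9853 genes from -0.51 to 0.04, 0.27 and 0.29. Each factor is below 1 and raises every UUO value, so genes higher as deposited could not fall back within the limit. Gadd45a, Btg2 and Phlda3 were higher under all 3 rescalings, with log2 differences of 1.84, 2.26 and 1.64 under equal sums, the smallest of the 3 shifts. Gdf15 passed the limit under each of them, at 1.07, 1.31 and 1.34. Bax and Sesn2 kept their sign but came within the limit, Bax at -0.66, -0.43 and -0.40 and Sesn2 at -0.58, -0.35 and -0.32. Cdkn1a was -0.22, 0.02 and 0.04, and Ccng1 was -0.27, -0.03 and -0.0039. By the median ratio 4 members were higher and 0 lower, where 35.5% of the 9853 genes were higher and 16.8% lower. Of the 3114 genes 17.1% were then higher and 13% lower.

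**Figure D3:**
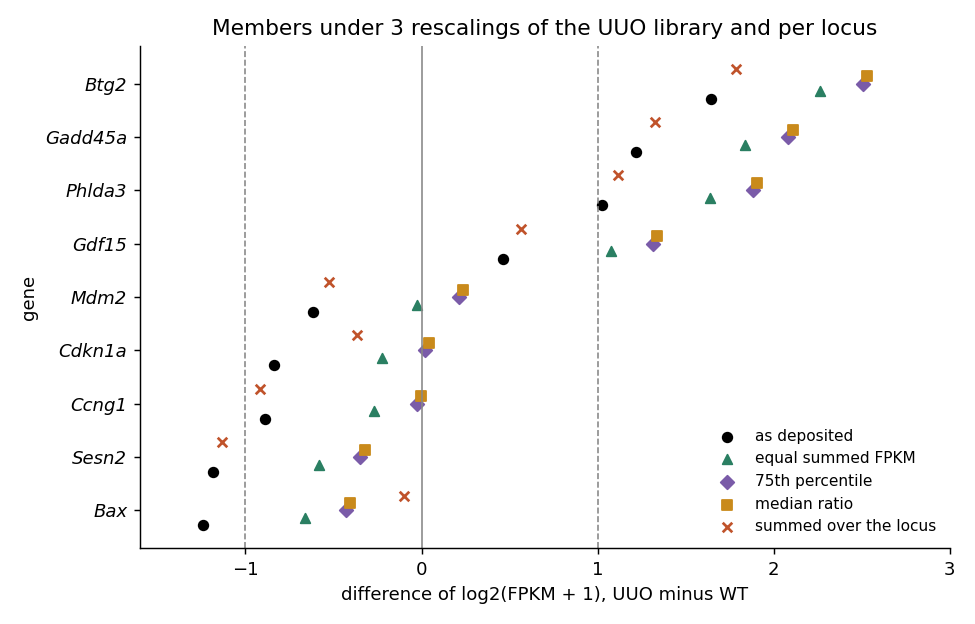
Log2(FPKM + 1) difference, UUO minus WT, of each of the 9 genes as deposited, after 3 rescalings of the UUO library, and with FPKM summed over all features of the gene's locus. Dashed lines mark -1 and 1. Btg2, Gadd45a and Phlda3 lie to the right of 1 in all 5 versions, while Bax lies to the left of -1 only as deposited and Sesn2 only as deposited and when summed over its locus.

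Each member shares its listed locus with entries of a noncoding RNA database, 30 in all, and reads of a locus are divided among its entries. Of the 30 entries 15 (50%) had a 0 in WT but a value above 0 in UUO urine, as had 50.9% of all 62210 such entries at loci with an annotated gene. A 0 in WT with an FPKM of at least 1 in UUO urine was found for 12 of the 30 (40%) and for 5.15% of all such entries, whose loci include those of genes that were not detected. In WT urine Gadd45a, Btg2, Bax, Phlda3, Sesn2 and Gdf15 each held 100% of the FPKM of their locus, while in UUO urine Gadd45a held 92.7% and Btg2 90.4%. Bax held only 43.2% in UUO urine, where NONRATT005285 at the same locus had an FPKM of 12.9 against 0 in WT. Summed over the locus, Bax was 27.5 FPKM in WT and 25.6 FPKM in UUO urine, a log2 difference of -0.10, so that Bax was then no longer counted as lower. Cdkn1a held 97.4% of its locus in WT and 69.9% in UUO urine, and its log2 difference was -0.37 when summed. For Gadd45a, Btg2, Phlda3 and Sesn2 the summed differences were 1.33, 1.79, 1.11 and -1.13, on the same side of the limit as before.

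Relatives of the members were looked at next, to see whether families moved as a whole. Of 20 relatives 18 were detected in either library, 9 of them higher and 3 lower in UUO urine, with a median of 0.51. Over the 9853 annotated genes detected in either, 25.7% were higher and 36.5% lower, with a median of -0.51. Of the 9 higher relatives, Btg3, Mdm4, Bcl2 and Gdf11 were listed at 0 in WT urine and Btg1 was close to 0. Over the 13 relatives detected in both, 4 were higher and 3 lower, and the median was -0.24. Over all 7218 annotated genes detected in both, 7.01% were higher and 42.8% lower, and the median was -0.81. The Gdf15 receptor gene Gfral was listed at 0 in both libraries, and Mcl1 was under 1 FPKM in both.

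In the Gadd45 family the members parted. Gadd45b went from 7.82 in WT to 18.8 FPKM in UUO urine, a log2 difference of 1.16, close to that of Gadd45a. Gadd45g went from 133.4 to 39.5, a log2 difference of -1.73. The ratio of Gadd45a to Gadd45g was 0.362 for WT and 2.89 for UUO urine. In the antiproliferative Btg and Tob family all 4 genes measured had higher values in UUO urine. Tob1 went from 4.44 to 28.9 FPKM, a log2 difference of 2.46, and Btg3 from a listed 0 to 7.02. Btg1 was at 0.00049 FPKM in WT and 19.7 FPKM in UUO urine, but summed over its locus it was 32.6 and 46.0, a log2 difference of 0.48, within the limit.

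Among the sestrins, Sesn1 went from 4.47 to 15.9 FPKM, a log2 difference of 1.63, opposite to Sesn2, and Sesn3 was 40.5 FPKM in WT and 32.3 FPKM in UUO urine. The ratio of Sesn1 to Sesn2 was 0.0927 for WT and 0.771 for UUO urine. Phlda1 went from 24.1 to 49.7, nearly as Phlda3 did, while Phlda2 went from 13.8 to 5.07, a log2 difference of -1.28. Of the other inhibitors of cyclin-dependent kinases, Cdkn1b was 6.20 FPKM in WT and 5.09 FPKM in UUO urine and Cdkn1c was 9.42 and 1.60, a log2 difference of -2.00 that became -0.56 when summed over the locus.

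The 3 relatives of Bax in the Bcl2 family with signal in both libraries stayed within the limit. Bak1, the other pore-forming protein, was 10.8 FPKM in both libraries. Bok was 32.7 FPKM in WT and 19.7 FPKM in UUO urine, and the anti-apoptotic Bcl2l1 was 130.6 and 86.4. Summed over their loci these 3 genes had log2 differences of 0.25, -0.71 and 0.085. Bcl2 was listed at 0 in WT and at 3.496 in UUO urine. Ccng2, the relative of Ccng1, was 29.1 FPKM in WT and 26.2 FPKM in UUO urine. Mdm4, the partner of Mdm2 in holding p53 inactive, was listed at 0 in WT and at 6.81 in UUO urine, and Gdf11 at 0 and 2.33. Summed over its locus Gdf11 came within the limit, at 0.28. Cdkn1b, Ccng2, Bok, Bcl2l1 and Sesn3 had log2 differences below 0 as deposited. By the median ratio these were 0.54, 0.72, 0.15, 0.30 and 0.56. The sign thus changed, but all stayed within the limit.

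**Figure D4:**
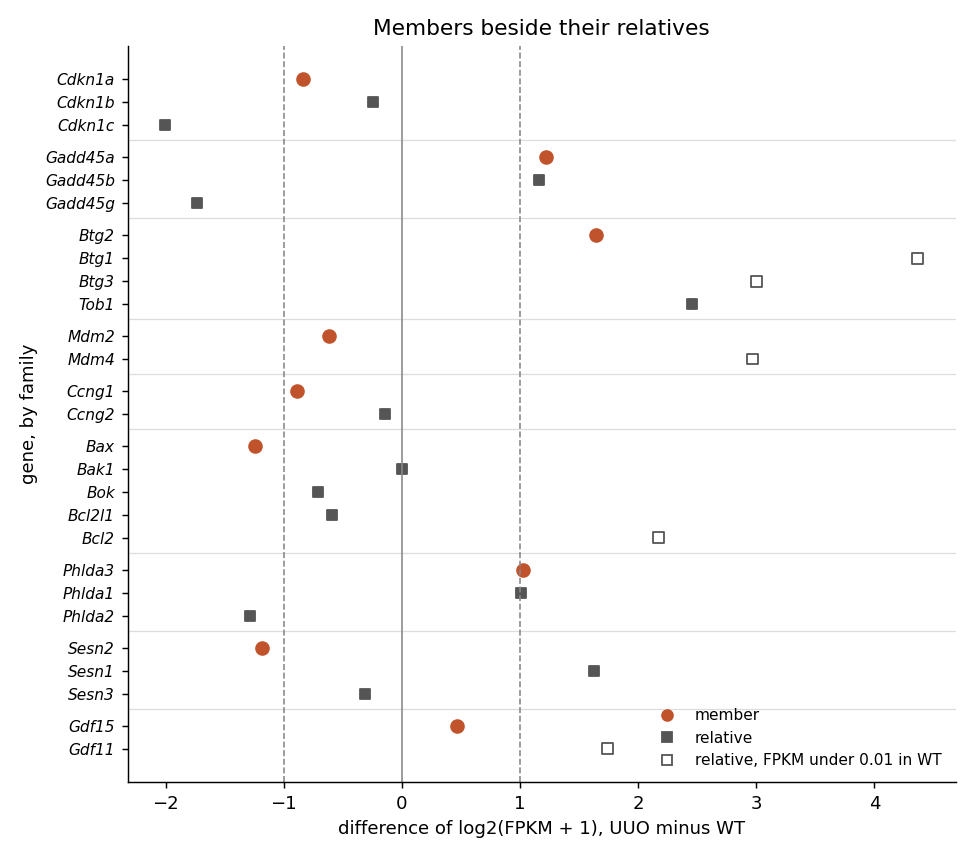
Log2(FPKM + 1) difference, UUO minus WT, of the 9 genes (circles) and of their 18 detected relatives (squares), grouped by family, with open squares for relatives under 0.01 FPKM in WT urine. Gadd45g and Gadd45a, Sesn1 and Sesn2, and Phlda2 and Phlda3 lie on opposite sides of 0.

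Most regulators of p53 stayed within the 2-fold limit. Of 12 listed, 9 were in the table and 7 detected in either library, 1 higher (Mdm4) and 1 lower in UUO urine, with a median of -0.70. Over the 9853 annotated genes detected in either, 25.7% were higher and 36.5% lower, with a median of -0.51. Over the 6 detected in both, 0 were higher and 1 lower, with a median of -0.72. All genes detected in both had 7.01% higher, 42.8% lower and a median of -0.81. The lower gene was Chek1, a kinase of the DNA damage checkpoint, at 9.30 FPKM in WT and 1.16 in UUO urine, a log2 difference of -2.26.

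Other p53 target genes were spread widely. Of 30 listed, 27 were in the table and 24 detected in either library, 10 higher and 5 lower, with a median of 0.78. Over the 9853 annotated genes detected in either, 25.7% were higher and 36.5% lower, with a median of -0.51. Of the 10 higher target genes 7 were listed at 0 in WT. Over the 16 target genes detected in both, 3 were higher and 4 lower with a median of 0.15, beside the 7.01% and 42.8% of all genes detected in both. Bbc3, which encodes the death protein Puma, was listed at 0 in WT and at 8.13 FPKM in UUO urine. Bid, another death protein of that family, was at 0 and 2.79. Thbs1, the matrix protein thrombospondin, went from 2.17 to 19.1, a log2 difference of 2.66.

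Lower in UUO urine were Tp53inp1, a stress-induced cofactor of p53, from 56.6 to 4.59 FPKM with a log2 difference of -3.36, and Fdxr, a mitochondrial reductase, from 12.8 to 0.624. Rrm2b, the p53-induced subunit of ribonucleotide reductase, went from 27.5 to 3.13, and Perp, a membrane protein of desmosomes and apoptosis, from 132.4 to 48.4. As deposited, target genes of p53 thus stood on both sides of the limit, as the 9 members did and as annotated genes did in general. Under each of the 3 rescalings 0 members were lower.

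Genes of cell division were detected for 6 of 16 in WT and 9 of 16 in UUO urine. The 11 detected in either library were 5 higher, 4 lower and 2 within the limit, with a median of -0.49, and all 5 higher ones were listed at 0 in WT. Over the 4 detected in both, 0 were higher and 2 lower, with a median of -1.14. The shares over all annotated genes were 25.7% higher and 36.5% lower when detected in either library, and 7.01% and 42.8% when detected in both. The 5 higher ones included Rb1, the retinoblastoma protein that holds cells before DNA synthesis, at 4.83 FPKM in UUO urine. Cdk2 was at 4.46, E2f1 at 1.83 and Cdk1 at 1.62. The lower ones were Mcm2, a subunit of the replicative helicase, from 21.1 to 2.77, Ccne1 from 7.08 to 0.830, Cdk4 from 118 to 45.5 and Plk1 from 1.83 to 0.25. Summed over their loci Cdk2 and Plk1 came within the limit, at 0.57 and -0.33.

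Genes of the integrated stress response, a pathway that also drives Sesn2 and Gdf15, stood on both sides of the limit. Of 9, 8 were detected in either library, and these 8 were detected in both. They were 3 higher and 3 lower, with a median of -0.42. Over all 7218 annotated genes detected in both, 7.01% were higher and 42.8% lower, with a median of -0.81. The transcription factor gene Ddit3, encoding Chop, went from 7.59 to 63.6 FPKM, a log2 difference of 2.91. Ppp1r15a, also called Gadd34, which restarts translation, went from 5.02 to 28.1, and Atf3 from 15.3 to 38.5. Atf4, the central transcription factor of the pathway, went from 904 to 110.6, a log2 difference of -3.02. Asns, asparagine synthetase and a target of Atf4, went from 57.8 to 7.85, and Trib3 from 4.71 to 1.76. Summed over their loci Ddit3 and Trib3 came within the limit, at 0.73 and -0.71. As deposited, Gdf15 had the sign of Ddit3 and Atf3, and Sesn2 that of Atf4 and Asns. Gdf15 was within the limit, and Sesn2 came within it under each rescaling. A link of either gene to these pathway genes was not tested.

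**Figure D5:**
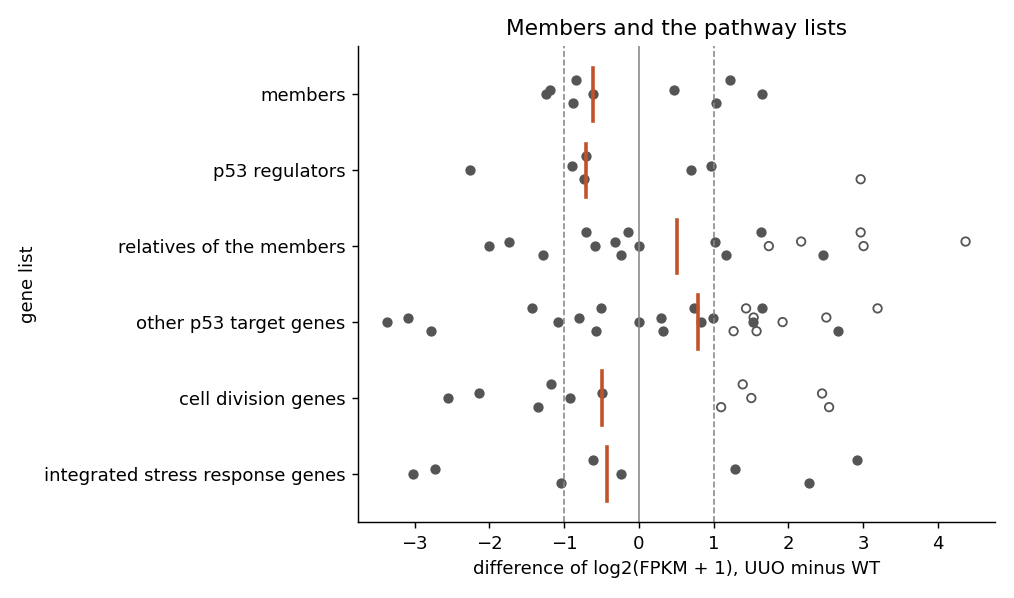
Log2(FPKM + 1) difference, UUO minus WT, of each gene detected in either library in 6 lists, with the list median as a vertical bar and open circles for genes under 0.01 FPKM in WT urine. The medians run from -0.70 for p53 regulators to 0.78 for other p53 target genes, and every list holds genes on both sides of 0.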

How the data were processed

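Urine RNA of 1 WT and 1 UUO library was analysed from a deposited table of FPKM values in the layout of a Cuffdiff gene comparison. Per the study's methods the authors used TopHat to align paired reads, and Cufflinks with Scripture to assemble transcripts. The submitters' processing notes name Bowtie2 2.0.6, TopHat2 2.0.9, Cufflinks 2.1.1, Cuffdiff 2.1.1 and build rn5, to which gene coordinates refer. Whether counting used strand is not given in the sources used here. The columns of fold changes, p-values and q-values from the authors' comparison were not used. The conditions are named UrRf and Urc, which are not sample titles. They were read as UUO and WT from the series title and from the headings of the study's urine lists, and with the names exchanged every direction would turn.

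Symbols came from a RefSeq table of GRCr8 by gene ID, which matched 16329 of 16484 number-only IDs. GRCr8 coordinates are given for promoter sequences only. Changes are differences of log2(FPKM + 1), counted at 1 or more in size among genes that reach an FPKM of 1 in at least one library. This scale understates the change of low genes. Named were all 9 members, all detected relatives, and in the other 4 pathway lists up to 4 genes with the greatest difference in each direction. Cdkn2a and Chek2 are named only for their part in a median. The members and 10 lists were chosen with earlier results of these data known. Tp53bp1, Atr, Ep300, Sfn, Sco2, Eda2r and Upk3b were not analysed here. Among the genes that the naming rule gives, 1 is not reported here.

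Counts of reads were not analysed, so FPKM of assembled features alone at loci of 400 to 1200 bp were fitted as whole fragments, with 1 total and 1 length offset per library. Within 0.1 of a whole number came 93.5% of 186 WT values and 99.5% of 3530 UUO values, at totals of 2115000 and 2446000 fragments. The fit was tested on simulated data. Python 3.11.15, numpy 2.4.6, pandas 2.3.3 and matplotlib 3.10.9 were used. Alternatives were other pseudocounts, fold limits and detection limits, 3 rescalings of the UUO library, and FPKM summed over the locus.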

Additional observations from a re-analysis of the deposited data

Results flagged for a closer look

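Entries of the noncoding database at the members' loci are outside the comparisons of annotated genes. Of them 12, at 6 loci, were listed at 0 in WT urine and had an FPKM of at least 1 in UUO urine, which is why they are given here. They are 40% of the 30 entries at the members' loci, and 5.15% of all 62210 such entries met the same limits. At the Bax locus NONRATT005285 had an FPKM of 12.9 and NONRATT005281 of 1.10. At the Btg2 locus NONRATG009134 had 4.61 and NONRATT017267 4.48, and at the Gadd45a locus NONRATG022261 had 4.48 and NONRATT041473 4.47. At the Cdkn1a locus NONRATG017603 had 3.79 and NONRATT032913 2.75. At the Phlda3 locus NONRATG008611 had 1.39 and NONRATT016429 1.38, and at the Gdf15 locus NONRATG011801 had 1.23 and NONRATT022293 1.22. Pairs of entries at 1 locus overlap and share reads, so they are not separate observations.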

How the results depend on the processing

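No paired analysis was possible because WT and UUO have a single library each, and none could be left out. Over 20 results and 9 alternative settings, 93 of 140 combinations kept their sign and their side of the limit, or stayed within 1.5 times for counts. All 9 members stayed detected in both libraries under each detection limit. The number of members higher stayed within 1.5 times of 3 except at the 4-fold limit, where 0 were higher and 0 lower. The number lower, 2 as reported, was 0 with a pseudocount of 10 and under each of the 3 rescalings, and 1 with FPKM summed over the locus. With a pseudocount of 10 Phlda3 was at 0.79. The members' median became 0.24 (median ratio) and 0.21 (75th percentile). In that order of rescalings (equal sums, median ratio, 75th percentile), the median of the relatives was 1.11, 1.37 and 1.34, of other p53 target genes 1.37, 1.63 and 1.61, and of stress response genes 0.16, 0.41 and 0.39. Under the last 2 of them it was 0.15 and 0.13 for p53 regulators and 0.12 and 0.099 for cell division genes. Each rescaling divides UUO values by 1 factor below 1 and so moves every median upward. The median of cell division genes was 0.77 with FPKM above 0 and -1.75 with FPKM of at least 5, and that of the relatives -0.072 with at least 5, as these limits change which genes enter. Summed over the locus, the median of p53 regulators was 0.16, which is the value of Cdkn2a. Cdkn2a itself was listed at 0 in both libraries, and its locus sums were 6.05 FPKM in WT and 6.88 FPKM in UUO urine. Cdkn2a and Chek2 enter this median only through their locus sums. Counting error is smallest for the high members, and Bax in UUO urine, with 22 fragments per 1000 bp, rests on the fewest.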
